A study of Mus musculus with 4 samples.

Results

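The immunity-related GTPases are a family of interferon-induced proteins, and 6 of its mouse genes are described here in transplanted hearts. They were taken by symbol, as the rows named Irgm1, Irgm2, Igtp, Iigp1, Tgtp1 and Tgtp2, and make up 6 of the 30905 genes counted. Their levels were not used to choose them.

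Immunity-related GTPases defend the inside of a cell. Under interferon gamma, and more weakly under type I interferon, cells make effector GTPases that load onto the membrane of a vacuole holding a microbe such as Toxoplasma gondii and break it. Regulatory members sit on the host's own membranes and hold the effectors in their inactive, GDP-bound form, and the ATG5 conjugation system helps to direct the effectors to the vacuole. Irgm1, Irgm2 and Igtp (also called Irgm3) are regulatory members. Iigp1 (also called Irga6) and the pair Tgtp1 and Tgtp2 (Irgb6) are effectors.

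The hearts came from a study of graft rejection in young adult male mice. Each donor heart was joined to the abdominal vessels of a C57BL/6J recipient and taken out on day 5. In the 2 allogeneic grafts the donor was Balb/C, and in the 2 syngeneic grafts it was C57BL/6J, so donor strain and the alloresponse cannot be told apart. No transgene, drug or immunosuppression is named for either group. Each graft was dissociated with enzymes and treated with a red cell lysis buffer, and 1 single-cell library was made from it.

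The cells of all 4 libraries lie in 1 merged table, and a suffix of 1 to 4 on each cell barcode marks the library. No source used here pairs a suffix with a graft. The libraries are therefore called libraries 1 to 4, no library is assigned to the allogeneic or the syngeneic group, and no test between groups was made. A graft also holds recipient cells, so a cell class may mix donor and recipient cells.

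The libraries held between 13112 and 13907 cells each, with 96020294 to 166079145 unique molecular identifiers (UMIs, which count captured RNA molecules) and a median of 4759 to 9784 UMIs per cell. Any pair of libraries shared between 40 and 60 barcodes, at most 0.444% of the smaller one. Of 53824 cells, 44626 passed the filters on detected genes and mitochondrial UMIs, more than the study itself states it kept, and 42395 remained without likely doublets. These fell into 27 clusters, which were named from marker genes as endothelial-like, fibroblast-like and so on, except for clusters 6 and 20. Cluster 6, with 2103 cells (2082 of library 2), had 3 erythroid markers raised, and cluster 20, with 861 cells, had 6 cardiomyocyte markers raised. Both were left unnamed for low depth, with medians of 905 and 907 UMIs and no class marker among their 10 leading genes. The clusters named endothelial-like had 3 to 9 of the 9 endothelial markers raised 2-fold and detected in at least 10% of cells. Cluster 17 had 3 of them and cluster 23 had 5. Levels are in counts per 1000000 (CPM), a gene's UMIs per 1000000 non-mitochondrial UMIs of the same cells, and an interval is the exact Poisson 95% interval, which covers counting error only. A class was given a level in a library only where it had at least 50 cells there.

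Of the 6 genes, 5 lie on chromosome 11 of the GRCm38 assembly. Irgm1 (ENSMUSG00000046879) spans chr11:48861968-48871683, Tgtp1 (ENSMUSG00000078922) chr11:48985327-48994172 and Tgtp2 (ENSMUSG00000078921) chr11:49057194-49064206, all on the minus strand. Igtp (ENSMUSG00000078853) at chr11:58199556-58207591 and Irgm2 (ENSMUSG00000069874) at chr11:58199618-58222782 share the plus strand and overlap. Iigp1 (ENSMUSG00000054072) lies apart, on the plus strand of chromosome 18, from 60376027 to 60392634.

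The effector pair Tgtp1 and Tgtp2 can hardly be told apart by short reads. Of all windows of 100 bases in the longest coding transcript, 83.3% in Tgtp1 and 80.4% in Tgtp2 occurred unchanged in a transcript of another gene, and 100% of those in the last 500 bases, where a 3' kit reads, did so. The share was 2.48% in Irgm2, 5.67% in Igtp, and 0% in Irgm1 and Iigp1. The levels of Tgtp1 and Tgtp2, and the split between them, are therefore uncertain throughout.

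Promoters are shown because the 6 genes moved together across libraries, as described further on. Transcription factors of the IRF family bind repeats of GAAA, and the palindrome TTCNNNGAA was searched beside them. RefSeq promoters (GRCm38.p6) were found for 5 of the 6 genes, all but Iigp1, and the 250 bases before the start were searched on both strands. GAAANNGAAA was present in 5 of these 5 promoters, against 2.98% of all 32851 promoters, and TTCNNNGAA in 4 of 5, against 7.02%. The exception for the latter was Irgm1. The windows run from base -96 to base -13 before the RefSeq start, with the matches to either motif in capitals:

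Irgm1: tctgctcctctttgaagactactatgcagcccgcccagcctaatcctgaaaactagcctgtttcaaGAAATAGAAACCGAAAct
Irgm2: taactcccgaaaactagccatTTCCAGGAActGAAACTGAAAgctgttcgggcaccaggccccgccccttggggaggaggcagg
Igtp: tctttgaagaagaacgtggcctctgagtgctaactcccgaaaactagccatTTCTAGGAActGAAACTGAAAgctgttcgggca
Tgtp1: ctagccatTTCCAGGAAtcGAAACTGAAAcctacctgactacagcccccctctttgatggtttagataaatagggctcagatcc
Tgtp2: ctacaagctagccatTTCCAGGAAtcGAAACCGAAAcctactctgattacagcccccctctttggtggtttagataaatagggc

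They lie at chr11:48871433-48871516 (minus strand) for Irgm1, chr11:58214881-58214964 (plus) for Irgm2, chr11:58199460-58199543 (plus) for Igtp, chr11:48992259-48992342 (minus) for Tgtp1 and chr11:49064225-49064308 (minus) for Tgtp2. The Irgm1 window falls inside an exon of a non-coding Irgm1 transcript in GENCODE M21. The Irgm2 and Tgtp1 windows likewise lie inside the spans given above for their own genes. In the 4 promoters with both motifs, the palindrome stands just before the GAAA repeat. Around both motifs Irgm2 and Igtp are nearly alike, and so are Tgtp1 and Tgtp2, so the counts above do not rest on separate sequences. In Irgm1 the capitals hold 2 overlapping GAAA repeats. Both motifs occurred together in 0.332% of all promoters. A match describes the letters only, and binding was not measured.

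In the endothelial-like cells, the lining of the graft's vessels, all 6 genes differed widely between libraries. Their summed level was 2033 CPM in library 1 (4127 cells), 102 CPM in library 2 (4590 cells), 1082 CPM in library 3 (3986 cells) and 4229 CPM in library 4 (653 cells). Library 2 was the lowest, library 4 the highest, and no counting interval overlapped another, the nearest being 2015 to 2050 CPM in library 1 and 1072 to 1093 CPM in library 3. Without replicates of a known group, the spread between grafts of 1 kind cannot be set against these differences.

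**Figure D1:**
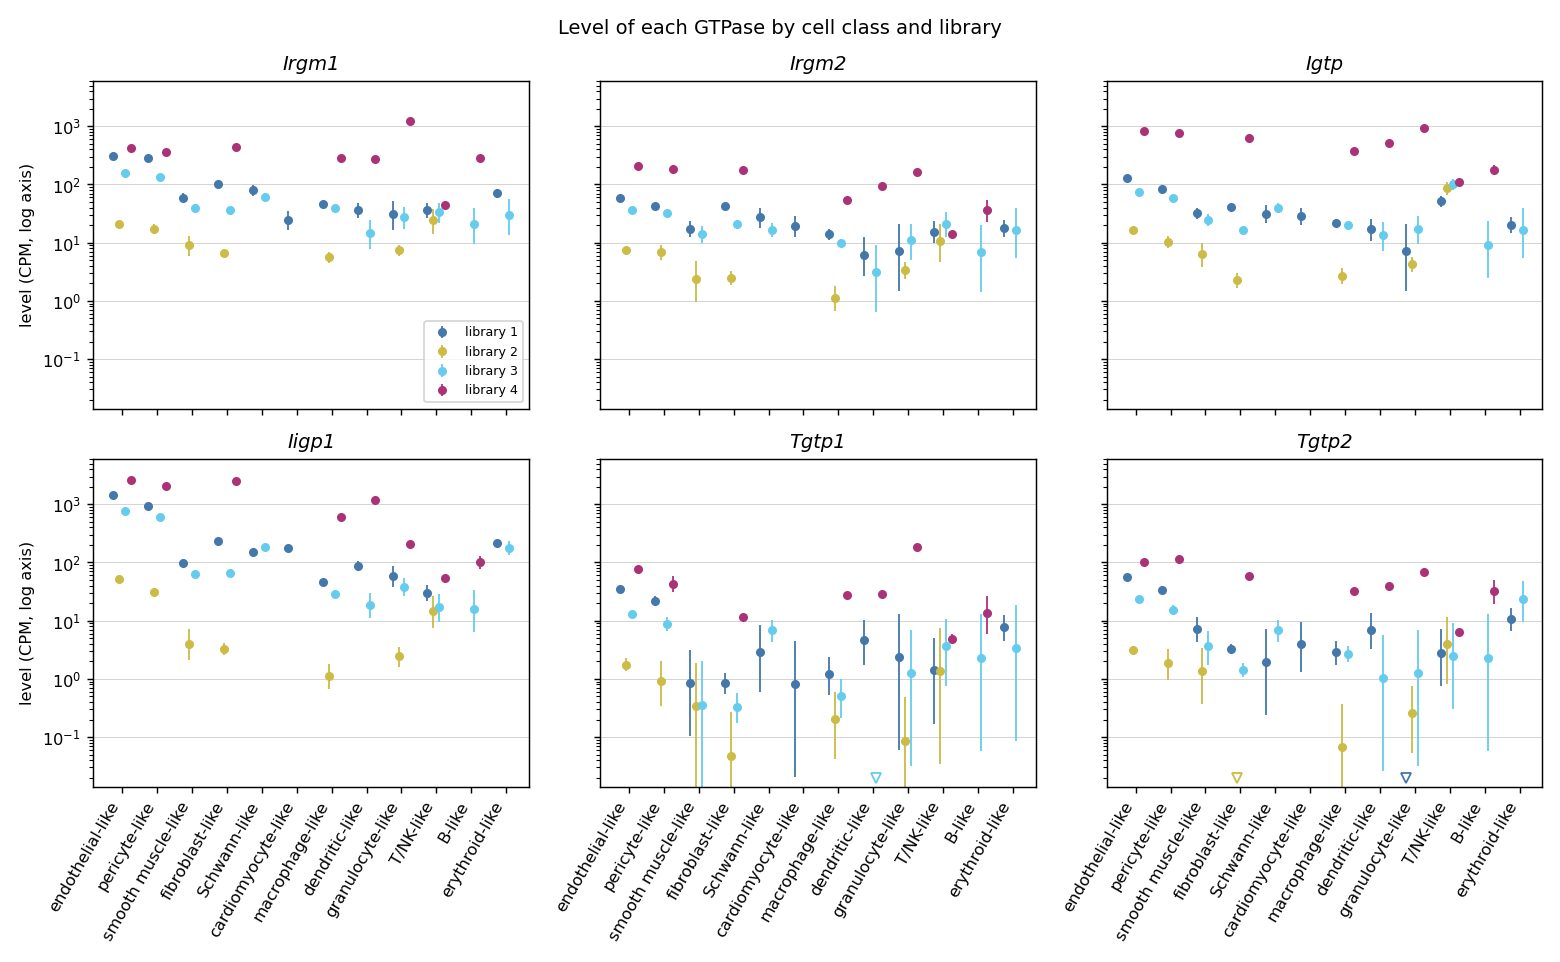
Level of each of the 6 genes (CPM, log axis) in every named cell class with at least 50 cells in a library. Points are libraries, bars are exact Poisson 95% intervals, and open triangles at the lower edge are classes with no UMI of the gene. Library 4 points lie above the other libraries in most classes, with the T/NK-like cells, among the classes measured in all 4, as the one where the libraries lie closest, and library 2 points are the lowest in the endothelial-like, fibroblast-like and macrophage-like cells.

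Of the effectors, Iigp1 was at 1442 CPM in library 1, 52.6 CPM in library 2, 781 CPM in library 3 and 2593 CPM in library 4 of the endothelial-like cells. It was the most counted of the 6 genes in each of these libraries, with 51.4% to 72.2% of their UMIs. The kit counts 1 tag per RNA, so levels are not divided by length, yet genes may still be captured with unequal efficiency.

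Tgtp1 was at 34.8, 1.75, 13.3 and 77.1 CPM in libraries 1 to 4, and Tgtp2 at 55.8, 3.08, 23.1 and 102 CPM, with the uncertainty named above. Both were in the same order of libraries as Iigp1.

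Of the regulators, Irgm1, which also guards against mycobacteria, was at 315, 21.2, 154 and 422 CPM in libraries 1 to 4. Irgm2 was at 58.3, 7.6, 36.8 and 209 CPM, and Igtp at 128, 16.2, 73.2 and 827 CPM. All 3 regulators were again lowest in library 2 and highest in library 4, with libraries 3 and 1 in between.

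A gene was counted as different between libraries where its level, with 10 CPM added on both sides, differed at least 2-fold, among the genes at 20 CPM or more in either library. This is a rule of size and not a test. Library 1 was over library 2 for 6 of 6 members, against 5.86% of the 6808 genes compared, and library 3 was over library 2 for 5 of 5 compared, against 5.26%. Between libraries 1 and 3 the count was 0 of 6, against 1.13% of genes higher in library 1 and 1.11% higher in library 3, although all 6 levels were lower in library 3. Library 4 was over library 3 for 6 of 6 members, against 5.43% of genes.

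Against library 1, library 4 was higher for only 2 of 6 members by this rule, against 6.79% of genes. By the same rule 9.41% of genes, but 0 of 6 members, were higher in library 1. The 2 were Igtp, with a log2 ratio of library 1 to library 4 of -2.60, and Irgm2, with -1.68, both regulators. For the other 4 members this log2 ratio lay between -0.96 in Tgtp1 and -0.41 in Irgm1. Irgm1, the remaining regulator, thus differed least, so the regulators did not differ as a group. Libraries 1 and 4 thus differed in the balance among the members and not in their sum alone. Igtp made up 6.28% of the members' UMIs in library 1 and 19.6% in library 4, and Irgm1 15.5% and 9.97%.

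The endothelial-like cells of the 4 libraries lay mostly in different clusters, so the library and the cluster cannot be told apart here. Cluster 2 held 3519 of those of library 1, cluster 3 held 3127 of those of library 3, cluster 23 held 645 of those of library 4, and clusters 4 and 17 held 3470 and 1022 of those of library 2. Cluster 17 was led by genes such as Cxcl5, Prg4, Cxcl1 and Ptx3, which are not among the endothelial markers used. Without it, library 2 still stood at a summed level of 107 CPM in cluster 4, against 65.5 CPM in cluster 17. Granulocyte markers summed to 3586 CPM in the endothelial-like cells of library 2, against 47.7 to 261 CPM in those of the other libraries, and their part in the level was not tested. Within cluster 2, the summed level was 2169 CPM in library 1 and 1320 CPM in library 3. Within cluster 3 it was 1829 CPM, 95 CPM and 1117 CPM in libraries 1 to 3, so these libraries kept their order within a cluster. Library 4 had 0 cells in cluster 2 and 8 in cluster 3, so its place could not be compared within them.

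The library 4 value depends on how its cells were named. Under 4 of the alternative settings, the cells of cluster 23 joined others in a larger cluster that met no class rule, and the highest named level was then that of library 1, from 1199 to 2148 CPM. The 1199 CPM, with over 500 genes required, also left out 3554 library 1 cells whose cluster met no class rule there. The larger cluster still had a summed level of 3296 to 3787 CPM in library 4. Under the 5 alternatives that named them endothelial-like, the level was 4194 to 4255 CPM.

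Endothelial-like subclusters were compared within libraries 1 and 3, which shared 6 of them, and then within library 2. Subcluster 2, led by hemoglobin genes, Isg15 and Ifit1, had the highest summed level, 2545 CPM in library 1 and 2109 CPM in library 3. Arterial-like cells were at 1795 and 1089 CPM, and lymphatic-like cells, which drain tissue fluid, were the lowest named type in library 1 at 391 CPM, with 297 CPM in library 3. The endocardial-like cells, which line the heart's chambers, differed most between these libraries, with 1164 CPM in library 1 and 204 CPM in library 3, from 88 and 50 cells.

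Lymphatic-like cells were thus below arterial-like cells in both libraries, with intervals of 352 to 434 and 1736 to 1855 CPM in library 1 that do not overlap. Cycling endothelial-like cells of library 3, at 614 CPM, lay between these. In library 2, 4 subclusters ranged from 64.5 to 131 CPM, below every endothelial subcluster of the other libraries. The capillary-like subclusters 3 and 5 were at 102 and 131 CPM. Subclusters 8 and 9, at 65.7 and 64.5 CPM, were unnamed. Their leading genes included Retnlg, S100a9 and Chil3, which are not among the endothelial markers used, and their part in the level was not tested. The unnamed subcluster 1 was also low, at 652 CPM in library 1 and 440 CPM in library 3, at median depths of 3138.5 and 3997.5 UMIs per cell against 5315 and 6490.5 in subcluster 2.

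**Figure D2:**
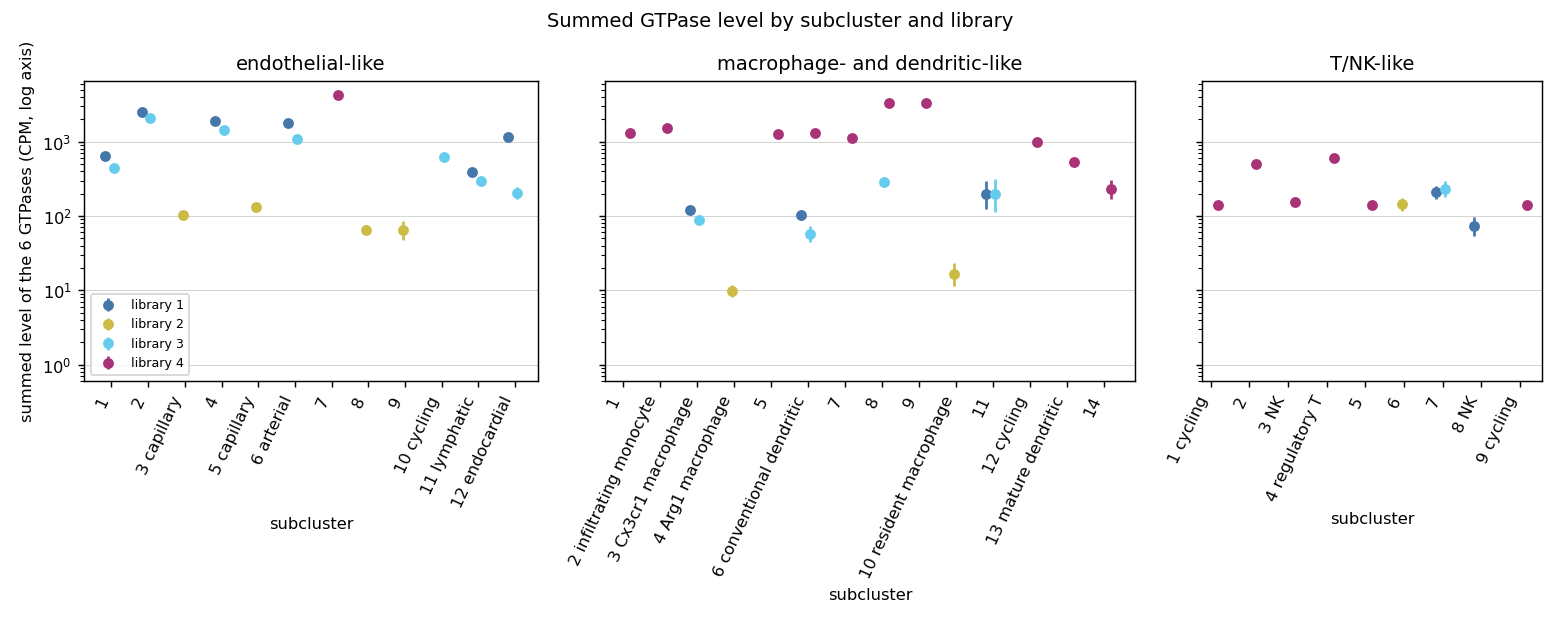
Summed level of the 6 genes (CPM, log axis) in each subcluster with at least 50 cells in a library, for endothelial-like, macrophage- and dendritic-like and T/NK-like cells. Points are libraries and bars are exact Poisson 95% intervals, and numbers without a name are subclusters that the naming rule left unnamed. The endothelial subclusters of libraries 1 and 3 span 204 to 2545 CPM and those of library 2 only 64.5 to 131 CPM.

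Fibroblast-like cells, which make the matrix of the heart, gave the widest span. The summed level was 424 CPM in library 1, 14.8 CPM in library 2, 143 CPM in library 3 and 3852 CPM in library 4, from 2172, 815, 2011 and 340 cells. Iigp1 ran from 3.29 CPM in library 2 to 2533 CPM in library 4, with 236 and 67.1 CPM in libraries 1 and 3, and all 4 intervals were apart from each other. Fibroblast markers summed to 10718 CPM in library 2, against 34564 to 52739 CPM in the other libraries. Granulocyte markers were at 690 CPM in library 2, against 16.1 to 58.5 CPM in the others, and their part in the level was not tested.

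Igtp in these cells was at 40.3, 2.29, 16.7 and 633 CPM in libraries 1 to 4, and Irgm1 at 100 CPM (interval 96.6 to 104), 6.67, 36.9 and 434 CPM. Tgtp1 stayed at or under 11.7 CPM in every library, and had 1 UMI in library 2, where Tgtp2 had none. That count of 0 in 815 cells allows a share of up to 0.368% of cells with a UMI. Library 4 was over library 1 for 5 of 5 members compared, against 8.03% of genes, and library 1 over library 2 for 4 of 4, against 17.5% of genes, a large background.

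Libraries 1 and 3 also differed in fibroblast-like cells, where library 1 was higher by the size rule for Irgm1 and Iigp1, 2 of 4 members compared, against 2.82% of genes. The fibroblast-like cells of these libraries lay mostly in different clusters, 1838 of library 1 in cluster 5 and 1532 of library 3 in cluster 8. Within cluster 5 the summed level was 487 CPM in library 1 and 211 CPM in library 3, and within cluster 8 it was 212 and 132 CPM, a smaller gap than over the class. In library 4 the fibroblast-like cells were also set against the endothelial-like cells. By the size rule only Tgtp1, 1 of 6, was lower in the fibroblast-like cells, against 13.3% of genes, a count near the background share. The log2 ratio of fibroblast-like to endothelial-like cells was -2.01 for Tgtp1 and between -0.68 and 0.04 for the others. Of the fibroblast-like cells of library 4, 329 lay in cluster 14, led by Prg4, Timp1 and Cxcl5, which also held 798 of library 2. Within this 1 cluster, the summed level was 3848.5 CPM in library 4 and 13.7 CPM in library 2.

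Macrophage-like cells, which include recruited monocytes, had summed levels of 131, 10.9, 102 and 1365 CPM in libraries 1 to 4, from 533, 1003, 1158 and 5884 cells. Iigp1 was at 45.7, 1.14, 28.6 and 596 CPM, Igtp at 21.8, 2.68, 20.4 and 372 CPM, and Irgm1 at 45.5, 5.63, 39.8 and 283 CPM. Library 4 was over library 1 for 6 of 6 members, against 6.68% of genes, and between libraries 1 and 3 the count was 0 of 3 compared, against 0.998% higher in library 1. The macrophage-like cells of library 4 lay in clusters 1 and 11, with 4187 and 1665 cells, and those of library 1 in clusters 12 and 15, with 419 and 104, so the library and the cluster cannot be told apart in that comparison. Irgm1, at 51.9% of the members' UMIs, was the leading member in library 2, where the total was only 162 UMIs.

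Within each library the macrophage-like cells lay below the endothelial-like cells. The endothelial-like level was the higher for 6 of 6 members in library 1, against 21.3% of genes, for 5 of 5 in library 3, against 20.8%, and for 5 of 6 in library 4, against 18.6%. The exception in library 4 was Irgm1, with a log2 ratio of -0.56. The members' shares differed too, since Iigp1 held 43.7% of the members' UMIs in the macrophage-like cells of library 4 and 61.3% in the endothelial-like cells.

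Among the macrophage- and dendritic-like subclusters of library 4, infiltrating monocyte-like cells stood at 1508 CPM, conventional dendritic-like cells at 1317 CPM, cycling-like cells at 993 CPM and mature dendritic-like cells, which carry antigen to lymph nodes, at 527 CPM. The unnamed subclusters 1, 5, 7 and 14 were at 1321, 1249, 1138 and 231 CPM in library 4, from 2709, 685, 387 and 61 cells. Subcluster 5 had a median depth of only 1081 UMIs. Conventional dendritic-like cells were the named subcluster measured in 3 libraries, with 103 CPM in library 1 and 58.1 CPM in library 3. Cx3cr1 macrophage-like cells were at 121 and 88.4 CPM in libraries 1 and 3. In library 2, Arg1 macrophage-like cells were at 9.72 CPM and resident macrophage-like cells at 16.7 CPM, the lowest of all subclusters. In the macrophage-like cells of library 2, granulocyte markers summed to 5042 CPM, near the macrophage markers at 5209 CPM. In the other libraries granulocyte markers were at 91.5 to 239 CPM and macrophage markers at 11494 to 21377 CPM. The part of granulocyte RNA in the library 2 level was not tested. A pair of unnamed library 4 subclusters reached 3283 and 3360 CPM, at median depths of only 899 and 1489 UMIs, and were led by endothelial genes (Egfl7, Cdh5) and by keratin and mesothelial genes (Krt8, Krt18), not by macrophage genes.

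Granulocyte-like cells, mostly neutrophils, showed another make-up. Their summed level was 107, 17.9, 96.5 and 2799 CPM in libraries 1 to 4, from 97, 2742, 254 and 783 cells. Library 4 was over library 1 for 6 of 6 members, against 10.8% of genes. In library 4, Irgm1 stood at 1245 CPM and Igtp at 931 CPM, while Iigp1 was at 206 CPM, so that Irgm1 made up 44.5% of the members' UMIs and Iigp1 7.36%. Against the endothelial-like cells of library 4, Irgm1 and Tgtp1 were higher by the size rule, 2 of 6, against 15.9% of genes, and Iigp1 was lower, 1 of 6, against 34.7% of genes.

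Tgtp1 reached its highest level of any class here, at 183 CPM with an interval of 166 to 200 CPM, while Tgtp2 stood at 67.8 CPM, the opposite order to that in endothelial-like cells. Because these genes share their 3' ends, this order is uncertain. In libraries 1 and 3 each member had at most 31 UMIs in granulocyte-like cells, so its make-up there is imprecise, and the library 3 level ran from 96.5 to 231 CPM across alternative settings. Of the granulocyte-like cells of library 4, 776 lay in cluster 21, and those of library 2 lay in clusters 7 and 16, with 2049 and 691 cells. Granulocyte markers summed to 44961 CPM in library 4, against 70769 to 195458 CPM in the other libraries. Macrophage markers were at 1538 CPM in library 4, against 248 to 699 CPM in the others, and their part in the level was not tested.

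**Figure D3:**
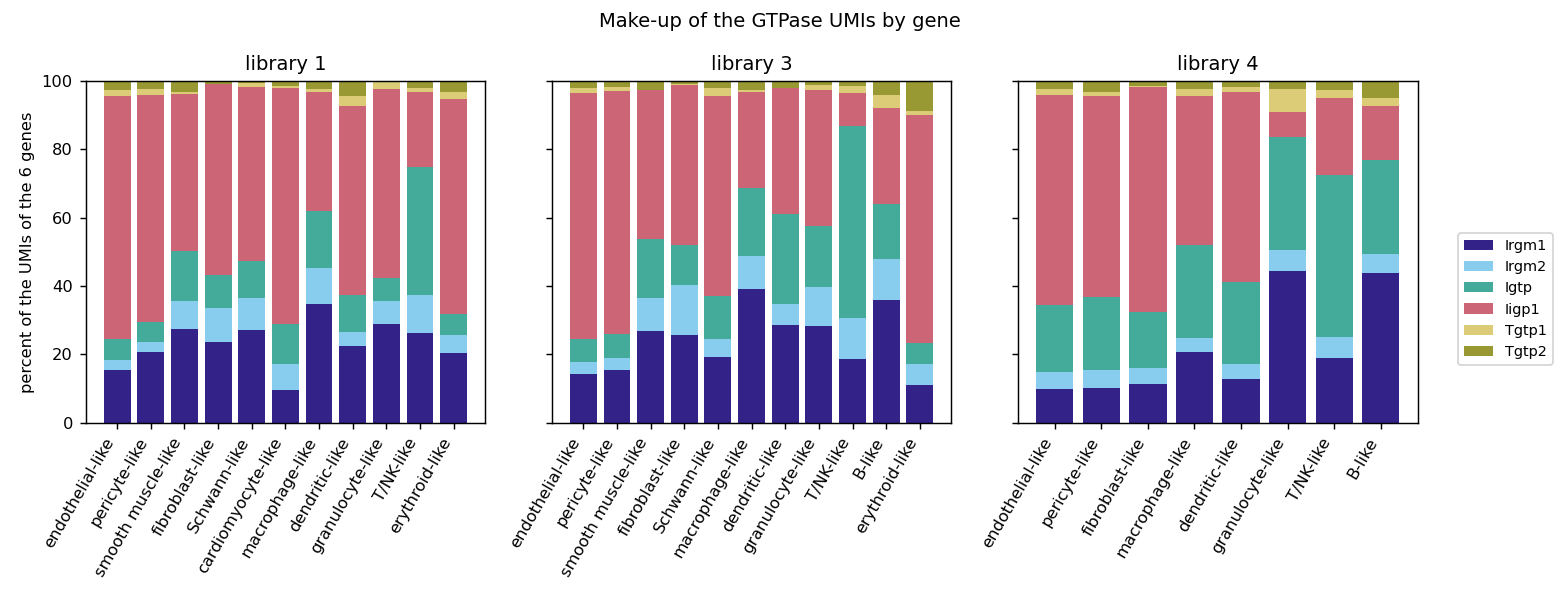
Percent of the UMIs of the 6 genes that each gene makes up, by class, in libraries 1, 3 and 4 (library 2 held few UMIs of them outside the endothelial-like cells). Iigp1 fills most of the endothelial-like bars, Igtp has its largest part in the T/NK-like bars, and Irgm1 is the largest part in the granulocyte-like and B-like bars of library 4.

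T/NK-like cells, the lymphocytes that make interferon gamma, differed least of the 6 classes measured in all 4 libraries. The summed level was 137, 140, 179 and 235 CPM in libraries 1 to 4, from 175, 163, 121 and 1407 cells. The intervals of libraries 1 to 3 overlapped each other (119 to 158, 115 to 170 and 151 to 210 CPM), and that of library 4, 228 to 241 CPM, lay above them. Across the alternative settings, library 1 ran from 129 to 257 CPM and library 4 from 226 to 338 CPM. Igtp was the leading member in each library, with 51.4, 85.6, 101 and 111 CPM and 37.4% to 61% of the members' UMIs.

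Iigp1 was at 30.2, 14.7, 17.4 and 53.2 CPM in these cells, and Irgm1 at 35.9, 24.1, 33.5 and 44.5 CPM. Between libraries 1 and 4 the count by the size rule was 0 of 3 members compared, against 4.19% of genes higher in library 4. Library 4 was over library 2 for Iigp1, 1 of 3, against 18.8% of genes, and over library 3 for Iigp1, 1 of 4, against 6.51%. In library 2, where the members were lowest in other classes, Igtp was higher in T/NK-like than in endothelial-like cells by the size rule, 1 of 3 members compared, against 11.8% of genes. In library 4, all 6 of 6 were lower in T/NK-like cells than in endothelial-like cells, against 21.4% of genes.

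The even level across T/NK-like cells hid differences between their subclusters. In library 4, regulatory T-like cells, which restrain other T cells, stood at a summed 595 CPM, with Igtp at 324 CPM, whereas NK-like cells were at 156 CPM and cycling-like cells at 138 and 140 CPM. The intervals, 559 to 632 CPM in regulatory T-like cells and 140 to 174 CPM in NK-like cells, were far apart. An unnamed subcluster at 508 CPM carried class II and monocyte genes such as Cd74, H2-Aa and Lyz2 among its leading genes, which are not T cell genes, and their part in its level was not tested. NK-like cells of library 1 were at 72.4 CPM. Most T/NK-like cells of library 2, 157 of 163, lay in an unnamed subcluster led by Fabp4, S100a8, Cd36 and other endothelial and granulocyte genes. Endothelial markers summed to 1274 CPM in the T/NK-like cells of library 2 and to 64.6 CPM in those of library 4, against T/NK markers at 2844 and 6004 CPM, and their part in the levels was not tested.

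B-like cells were at 57.8 CPM in library 3 and 641 CPM in library 4, with 107 and 131 cells. Library 4 was the higher for 5 of 5 members compared, against 4.98% of genes, and Irgm1 led there with 281 CPM. Smooth muscle-like cells were at 216, 23.6 and 144 CPM in libraries 1 to 3, the same order as in endothelial-like cells but lower. Schwann-like cells, which wrap nerve fibres, were at 291 and 319 CPM in libraries 1 and 3, with overlapping intervals of 259 to 326 and 300.5 to 339 CPM. Schwann markers there summed to 1975 and 479 CPM, below fibroblast markers at 12112 and 16920 CPM, endothelial markers were at 1681 and 2467 CPM, and erythroid markers at 22737 and 2062 CPM, and their part in the level was not tested. Unnamed cluster 20, led by Acta1, Ankrd1 and Nppa, had summed levels of 417, 58.5, 145 and 3337 CPM in libraries 1 to 4. Cardiomyocyte markers there were at 44329, 27391, 33679 and 16266 CPM. Median depths were only 908.5, 804, 1106 and 822.5 UMIs. In library 4 macrophage markers there were at 4030 CPM, and their part in the level was not tested. The named cardiomyocyte-like cells were at 252 CPM in library 1. Libraries 2 to 4 held 4, 40 and 6 of them, too few for a level. These small classes depended on the clustering: across alternative settings, library 1 ran from 214 to 448 CPM in smooth muscle-like, 244 to 652 CPM in Schwann-like and 251 to 547 CPM in cardiomyocyte-like cells, and library 3 from 51 to 176 CPM in B-like cells.

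Pericyte-like cells, which wrap capillaries, were at 1392, 68.7, 863 and 3541 CPM in libraries 1 to 4, the last from only 51 cells. Endothelial markers were high in these cells, with a summed level of 3813, 4968, 4699 and 2869 CPM in libraries 1 to 4. In the endothelial-like cells it was 7736, 9805, 8667 and 5357 CPM. The part of endothelial RNA in the pericyte-like values was not tested. The pericyte-like level of library 1 ran from 572 to 1567 CPM across the 8 alternative settings that named the class. Dendritic-like cells of library 4 were at 2169 CPM, at a median depth of only 1124 UMIs, and stood between 664 and 1149 CPM in the 5 alternatives that named them. In these cells the dendritic markers summed to 973 CPM, below the erythroid markers at 29296 CPM, the fibroblast markers at 3951 CPM and the macrophage markers at 2247 CPM, and endothelial markers were at 711 CPM. Their part in the level was not tested.

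Erythroid-like cells, whose mature forms make no new RNA, also held member UMIs. Iigp1 was at 217 CPM there in library 1, with hemoglobin and other erythroid markers taking 662317 CPM and endothelial markers 1764 CPM. After thinning to 1000 UMIs, 19.2% of the erythroid-like cells that were deep enough had an Iigp1 UMI, against 51.5% of endothelial-like cells and 2.31% of T/NK-like cells in the same library, at median depths of 1062.5, 4640 and 6758 UMIs. The summed erythroid-like level of library 1, 344 CPM, ran from 31.3 to 575 CPM across alternative settings. In library 4, endothelial markers were at 38.2 CPM in fibroblast-like, 53.2 CPM in macrophage-like, 105 CPM in granulocyte-like and 64.6 CPM in T/NK-like cells, against 5357 CPM in endothelial-like cells, and the part of endothelial RNA in the members' levels there was not tested. Hemoglobin and other erythroid markers in the endothelial-like cells were at 15608, 3056, 6416 and 5608 CPM in libraries 1 to 4, and their part in the levels was not tested.

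Members were also counted cell by cell after each cell had been thinned at random to 1000 UMIs, which evens out depth. In endothelial-like cells, at least 1 UMI of Iigp1 was found in 51.5%, 4.44%, 35.6% and 86.7% of cells in libraries 1 to 4. Irgm1 was found in 22.7%, 2.37%, 13.9% and 32.4%, and Igtp in 10.2%, 1.52%, 6.41% and 49.5%. Libraries kept the order that the levels gave.

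UMIs of 3 or more members in the same thinned cell were found in 7.42% of endothelial-like cells in library 1 (exact Clopper-Pearson 95% interval 6.63% to 8.28%), 0.046% in library 2, 2.62% in library 3 and 29.7% in library 4 (26.2% to 33.4%). Unthinned, these shares were 45.7%, 3.54%, 37.2% and 88.9%. In library 4 the thinned share was 24.1% in fibroblast-like, 21.2% in granulocyte-like, 6.64% in macrophage-like and 0.718% in T/NK-like cells. Cells with none of the 6 genes made up 5.55% of the endothelial-like and 75.1% of the T/NK-like cells of library 4.

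**Figure D4:**
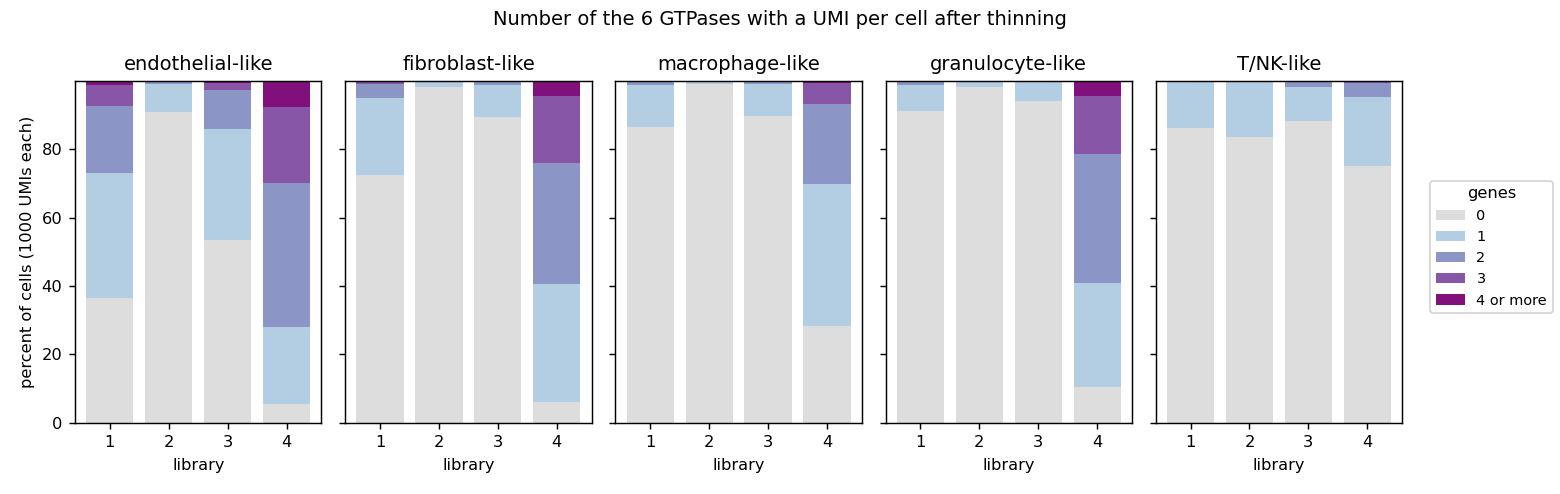
Percent of cells in which 0, 1, 2, 3 or at least 4 of the 6 genes had a UMI, each cell thinned to 1000 UMIs, by library, for 5 classes. Library 4 bars hold the most cells with several genes in all 5 classes, from 29.7% with at least 3 in endothelial-like cells to 0.718% in T/NK-like cells. The T/NK-like bars lie nearest each other.

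Single endothelial-like cells of a library were uneven. The summed level per cell in library 1 had a median of 1245 CPM, with 0 CPM in the cell at the 10% mark and 4764 CPM in that at the 90% mark. In library 4 the median cell was at 3957 CPM, and in library 2 it was at 0, with 294 CPM at the 90% mark. At this depth a cell at 0 may still express a member.

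The genes whose pattern was most like the members' were sought across the 42 sums of a class in a library, by Pearson's r of log2(CPM + 10) with the mean of the 6 members. The 42 sums include those of the unnamed clusters 6 and 20. They share libraries, depth and free RNA, and r is a description with no test. Of 11159 genes, the 20 with the highest r held Gbp2, Gbp3, Gbp4, Gbp5, Gbp6, Gbp7 and Gbp9, which encode guanylate-binding proteins, larger GTPases of the same defence, with r from 0.882 for Gbp9 to 0.958 for Gbp3. The others were Stat2 (0.924) and Irf7, signal transducers and factors of the interferon response, Cxcl9 (0.924) and Cxcl10, which attract T cells, and Xaf1, Parp9, Parp14, Ifit2, Ifit3, Herc6, Batf2, Usp18 and Rnf213 (0.859).

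Among themselves, the 15 pairs of members had r from 0.704, for Iigp1 and Tgtp1, to 0.930, for Irgm2 and Igtp, which overlap on the chromosome. For Igtp the most like genes were Gbp3, Gbp4 and Gbp7, with r from 0.932 to 0.943. For Iigp1 they were the members Irgm2 (0.872) and Irgm1 (0.858) and then Stat2 (0.855), and for Tgtp1 they were Gbp5 (0.940), Herc6 and Ifit2. Irf1, a transcription factor induced by interferon gamma, had r of 0.790, and Isg15 0.645. The receptor genes Ifngr1 and Ifngr2 had r of -0.190 and -0.123.

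Lists of related genes were then read beside the members in endothelial-like cells. The other immunity-related GTPases include Ifi47 (Irgd), an effector at 61.1, 8.64, 45.2 and 316 CPM in libraries 1 to 4, and 9930111J21Rik2, at 366, 39.3, 219 and 160 CPM. Both were lowest in library 2 as the members were, but 9930111J21Rik2 was higher in library 1 than in library 4. Irgq, a distant relative that is not interferon-induced, was between 7.28 and 10.4 CPM in all 4. Of this list of 9, only 2 were compared between libraries 1 and 2, and 2 of 2 were higher in library 1, against 5.86% of all genes.

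Of the guanylate-binding proteins, 7 of 7 compared were higher in library 1 than in library 2, against 5.86% of all genes, and 8 of 10 were higher in library 4 than in library 1, against 6.79%. The median log2 ratio of library 1 to library 2 was 2.19 for that list and 2.36 for the members, against 0.03 over all genes compared. For library 1 to library 4 the medians were -2.02 for the guanylate-binding proteins and -0.90 for the members, against 0.11 over all genes. The list of type I interferon response genes, such as Ifit1 and Isg15, gave 6 of 8 higher in library 1 than in library 2, against 5.86% of all genes. Between libraries 1 and 4, 3 of 9 were higher in library 4, against 6.79%, and 2 of 9 higher in library 1, against 9.41%.

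In the interferon gamma axis, Ifng itself was found mainly in T/NK-like cells, with 175, 0, 158 and 1327 CPM in libraries 1 to 4. The 0 in library 2 rests on 163 cells, with an upper bound of 4.93 CPM. Of these cells, 157 lay in the unnamed subcluster led by endothelial and granulocyte genes, so the 0 may not describe T/NK cells. In endothelial-like cells, Irf1 was at 1104, 207, 653 and 747 CPM, lowest in library 2 like the members but with library 1 the highest. Ifngr1 was at 241, 328, 252 and 155 CPM, with the highest value in library 2 and the lowest in library 4. Of the axis, 5 of 11 compared were higher in library 1 than in library 2, against 5.86% of all genes, and 6 of 14 were higher in library 4 than in library 1, against 6.79%.

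The ATG5 conjugation system and its Atg8 homologues, the partners of the GTPases in autophagy-like membrane work, were also read beside the members. None of its 9 genes compared differed at least 2-fold between library 1 and any other library in endothelial-like cells. Of all genes, 5.86% were higher in library 1 than in library 2. Against library 3, 1.13% were higher in library 1 and 1.11% in library 3. Against library 4, 9.41% were higher in library 1 and 6.79% in library 4. A count of none among 9 genes is near these shares. Atg5 was at 37.3, 36.6, 38 and 42 CPM, and Gabarap at 461, 441, 477 and 491 CPM. The summed level of the list ranged from 1294 to 1466 CPM over the libraries in which the members ranged from 102 to 4229 CPM.

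**Figure D5:**
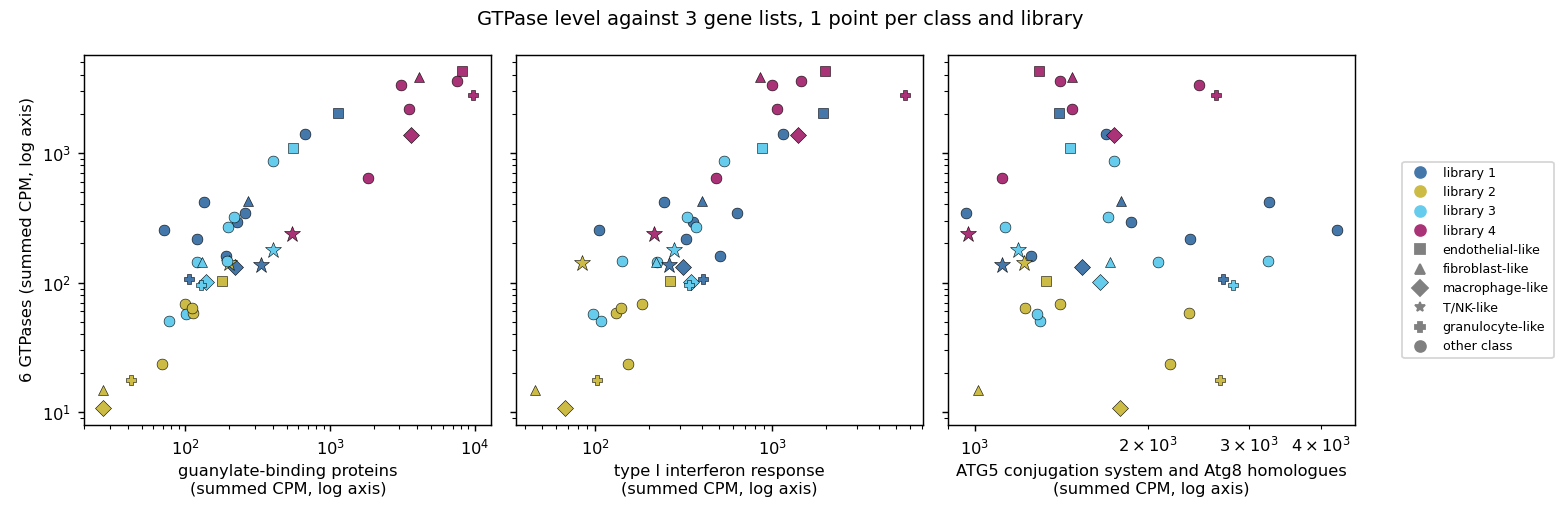
Summed level of the 6 genes against the summed level of 3 gene lists (CPM, log axes). There is 1 point for each of the 42 sums of a class or unnamed cluster in a library. The points run together for the guanylate-binding proteins and the type I interferon response genes, and spread without a common direction for the ATG5 system.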

How the data were processed

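The 4 libraries were made with the 10x Genomics 3' kit (version 3). The authors deposited whole-number UMI counts per gene and cell in 1 merged matrix, which per the file header came from Cell Ranger 3.0.0, aligned per the study's methods to mm10 with Ensembl 92. The submitters' processing notes also name CASAVA 1.8 and Seurat. Whether reads shared by several genes were counted is not given in the sources used here, and reads of Balb/C transcripts were aligned to a C57BL/6J genome.

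From these deposited counts, only cells that had more than 200 detected genes and in which mitochondrial UMIs stayed below 20% entered, as in the study. Mitochondrial genes were dropped, and the 5% of cells per library with the highest share of simulated doublets among 50 neighbours were left out, in place of the scran function of the study. Counts were scaled to 10000 per cell and logged. The 2000 most variable genes gave 10 principal components. The members and the gene lists were left out of them, except for the ATG5 list and a list of housekeeping genes. Genes outside the lists stayed eligible, interferon-induced or not. A graph of 30 neighbours was clustered with leidenalg 0.10.2 at a resolution of 0.8 (0.5 for subclusters), in Python 3.11.15 with scipy 1.17.1. A cluster took the class with most markers detected in 10% of cells and raised 2-fold, with at least 3 required. Total counts per library were 96020294 to 166079145. Scripts were tested on simulated data.

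The members and lists were chosen with earlier results of these data known. The genes named are the 6 members, genes of the lists, and the 20 genes most like the members' mean with the 3 most like each member. Genes singled out beyond this were chosen after their values were seen. Gm12250, Gbp11 and Cxcl11 were not analysed here. A withheld item is not reported here. With 1 merged matrix and no map from suffix to graft, no test, p-value or standard deviation is given. Alternatives were 2 other resolutions, 20 components, doublets kept, over 500 genes, all variable genes, each library left out, no thinning, other added CPM, and sums of at least 200 cells.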

Additional observations from a re-analysis of the deposited data

How the results depend on the processing

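No paired analysis was possible because the barcode suffixes carry no replicate numbers and are not tied to grafts. Fibroblast-like and macrophage-like cells kept library 2 as the lowest and library 4 as the highest under each alternative that kept both libraries. For the summed level of the members in endothelial-like cells, the lowest library (102 CPM) came to 97.2 CPM at a resolution of 0.4 and 106 CPM with 20 components, and the highest (4229 CPM in library 4) became library 1, at 2006 CPM at a resolution of 0.4, 2148 CPM with 20 components, 1999 CPM with doublets kept and 1199 CPM with over 500 genes, since the library 4 cells then lay in an unnamed cluster. With over 500 genes, 3554 library 1 cells also lay in an unnamed cluster, so that value rests on the other endothelial-like cells of library 1. In fibroblast-like cells, the lowest level (14.8 CPM) was 16.8 CPM at a resolution of 1.6 and 18.4 CPM with doublets kept, which also gave 3718 CPM for the highest (3852 CPM), 13.3 CPM for the macrophage-like lowest (10.9 CPM) and 1375 CPM for the macrophage-like highest (1365 CPM).

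With each library left out in turn, the lowest and highest levels ranged from 104 to 1078 CPM and from 2095 to 4255 CPM in endothelial-like cells, from 14.1 to 142 CPM and from 425 to 3860 CPM in fibroblast-like cells, and from 10.8 to 97.3 CPM and from 132 to 1363 CPM in macrophage-like cells. The far values come from leaving out library 2 or library 4, the lowest and the highest library themselves.

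Of 1716 member levels recomputed under 10 alternatives, 1457 stayed within the counting interval of the value reported and 181 moved by over 1.5 times. With 50 CPM added, 215 genes in place of 462 were 2-fold higher in library 4 than in library 1 of the endothelial-like cells. For the members, 149 comparisons in place of 230 passed, out of 426 between libraries or between classes. The 426 include comparisons under 20 CPM, which could not pass, so these counts are not shares of the members compared. No share over all genes is given beside them. Of the 20 genes most like the members, 17 were shared with 1 CPM added and 14 with sums of at least 200 cells. Intervals do not cover the spread between grafts.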
